A study of Mus musculus with 10 samples.

Results

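The centromere, the kinetochore that is built on it and the spindle checkpoint that reads it were followed as a set of 46 measured genes among the 22180 genes measured in dissected mouse trachea. The set held every gene whose symbol starts with Cenp in the array annotation and named genes of the outer kinetochore, the RZZ and Ska complexes, the checkpoint, the chromosomal passenger complex and shugoshin; the rule used gene symbols, and it was drawn up with earlier results of these data known. The annotation listed 48 such genes; Cenpu and Mis12 lay only on probe sets annotated with several symbols and were not analysed here, and Casc5 and Sgol1, older names of Knl1 and Sgo1, were covered under the current names. The chlorine group was 5 male FVB/NJ mice, killed 4 days after 1 hr of whole-body exposure to 235 ppm chlorine, and the other group was 5 male FVB/NJ mice that had no exposure; all were 9 weeks old. From each mouse, subepithelial mesenchyme was cut by laser capture from stained frozen sections of trachea and pooled over sections, and 1 Affymetrix array was hybridised. Values below are log2 intensities, which are comparable between mice for 1 gene but not between genes, and a change is the exposed mean minus the unexposed mean.

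A kinetochore is the protein assembly through which a chromosome is held by spindle microtubules. It stands on chromatin marked by the histone variant CENP-A, its inner layer stays on the centromere through the cell cycle, and its outer layer is put together for mitosis. Kinetochores without microtubules produce an inhibitor of the anaphase-promoting complex, so that chromosomes are parted only when all are attached. In adult airways most cells are at rest, and many of these genes are transcribed mainly in cells that approach division.

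In exposed mice, 36 of the 46 genes (78.3%) were higher at a limma adjusted p under 0.05 and 0 were lower, while 5.85% of all genes were called higher and 4.97% lower. At an unadjusted p under 0.05, 39 were higher and 0 lower, while 12.4% of all genes were higher and 11.9% lower. The median change over the 46 genes was 1.23, or 2.35-fold, against -0.003 over all genes. Of the 46, 26 (56.5%) were called and at least 2-fold higher, as were 1.85% of all genes, and 7 were at least 4-fold higher. The smallest rise of these 7, that of Knl1 (4.12-fold), had rank 86 among the changes of all 22180 genes. Every exposed mouse lay above every unexposed mouse for 33 of the 46 (71.7%), as was so for 5.89% of all genes, and the reverse held for 0 (5.06% of all genes). Changes of the called genes ran between 1.28-fold for Cenpt and 5.24-fold for Ndc80, and those of the other 10 between -0.17 and 0.36 in log2 units. In dissected bulk tissue, more cells of a type and more RNA per cell cannot be told apart.

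**Figure D1:**
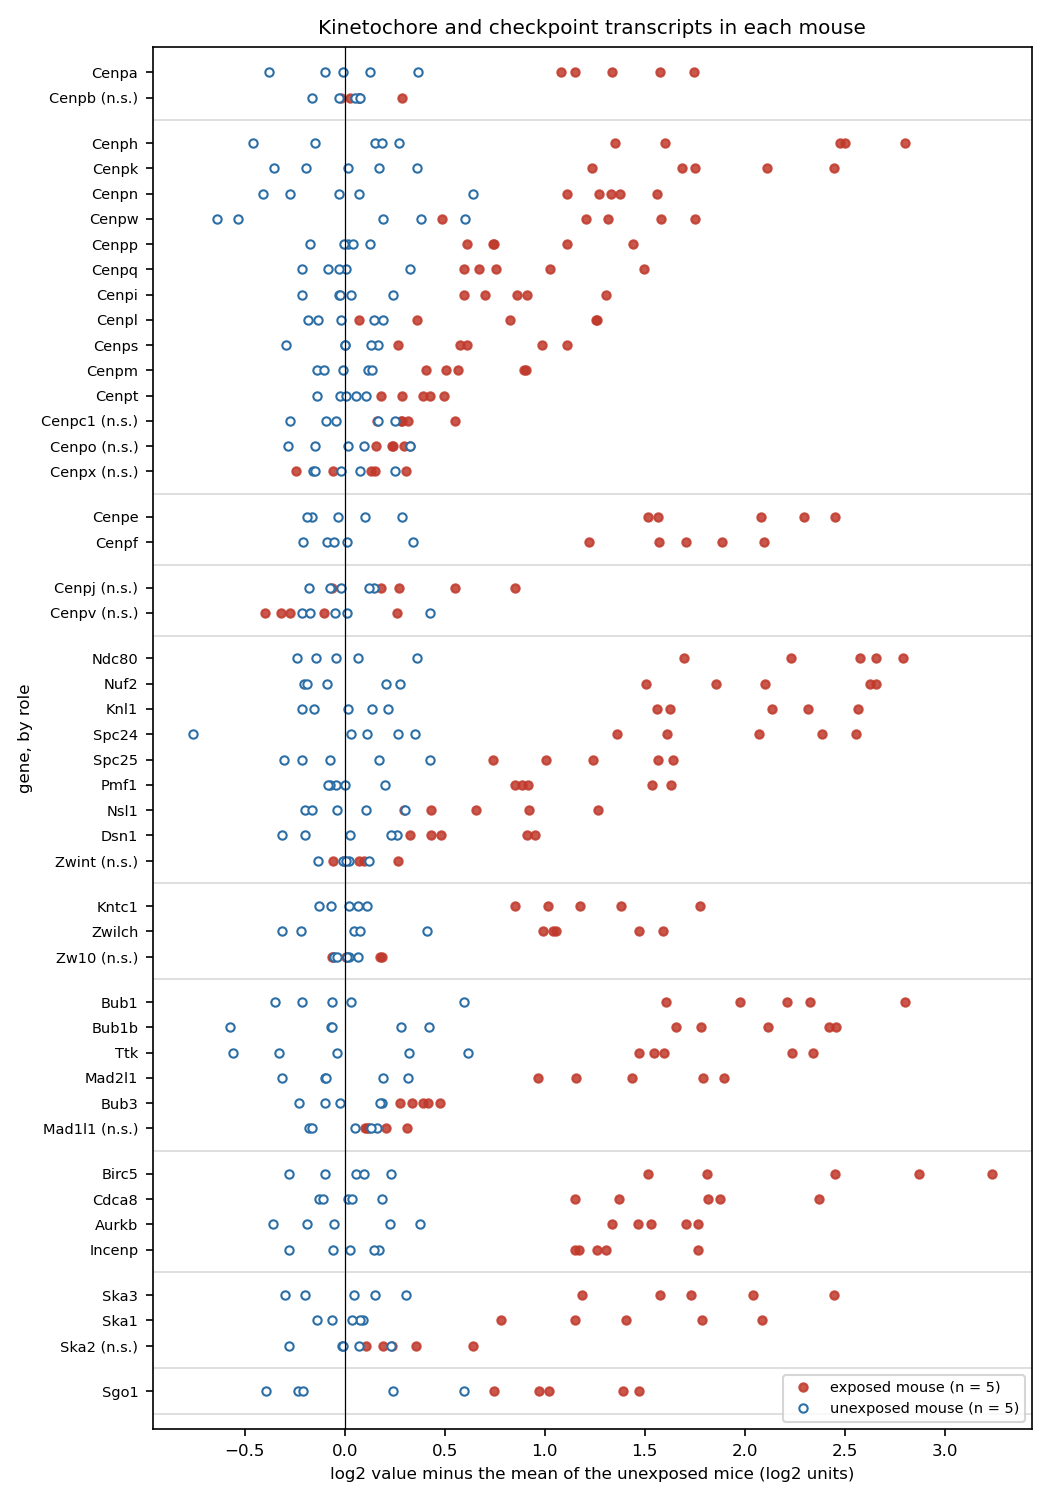
Each row is 1 gene and each point 1 mouse, as its log2 value minus the mean of the unexposed mice (x axis, log2 units); rows are grouped, top to bottom, as centromeric chromatin, inner kinetochore, corona, other Cenp symbols, outer kinetochore, RZZ complex, spindle checkpoint, passenger complex, Ska complex and shugoshin. Filled points are exposed and open points unexposed mice, and n.s. marks the 10 genes with an adjusted p of at least 0.05, whose points overlap around 0; for 33 genes the filled points stand clear to the right.

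Many genes of mitosis carry a short promoter element, the cell cycle genes homology region (CHR), which is bound by the MuvB core of the DREAM and MYB-MuvB complexes, often near a CCAAT box that is bound by NF-Y. RefSeq promoters of assembly GRCm38.p6, running from 250 bases before to 50 bases after a gene's start, were found for 40 of the 46 genes. The other 6 were Aurkb, Incenp, Nsl1, Ska1, Spc24 and Zwilch. The CHR was searched as TTTGAA or TTCGAA, the CCAAT box as CCAAT and the E2F site as TTTGGCGC, TTTCCCGC, TTTGCCGC or TTTCGCGC, on both strands; a gene with several promoters counted once, for any of them. A CHR word stood in 18 of 30 promoters of called genes (60%) and in 1 of 10 of genes not called, that of Zw10, against 19.4% of the 16918 array genes with a promoter. CCAAT was found in 20 of the 30 (66.7%) and 4 of the 10, against 41.6% of array genes. The CHR and CCAAT words shared 1 base in 3 genes. Both words were found in 15 of the 30 and 0 of the 10, against 7.86% of array genes. An E2F word was found in 4 of the 30 and 1 of the 10, against 3.25% of array genes. These are matches of letters, and no binding was measured.

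Where the CHR words stood was also uneven. In 15 of the 30 called genes (50%) and 0 of the 10 others the word began within 50 bases of the start, as it did in 5.11% of array genes; this window was chosen after the positions were seen. The stretches that hold the word are shown for 14 of these genes because so many of the called genes share it. They are ordered by the size of the rise, are written 5′ to 3′ on the gene's strand, and carry the CHR in capitals; TTCAAA is the same word read from the opposite strand.
Ndc80, chr17:71526811-71526840, minus strand: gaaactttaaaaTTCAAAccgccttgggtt
Bub1, chr2:127831828-127831857, minus strand: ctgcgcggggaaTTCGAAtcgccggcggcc
Bub1b, chr2:118598239-118598260, plus strand: agagacgttaaaTTTGAAactt
Knl1, chr2:119047138-119047167, plus strand: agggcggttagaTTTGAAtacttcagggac
Ttk, chr9:83834684-83834713, plus strand: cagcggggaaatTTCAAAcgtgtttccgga
Ska3, chr14:57826160-57826189, minus strand: gcctgcgcaggaTTCAAAtgtgtagcgcgt
Cenpf, chr1:189688067-189688096, minus strand: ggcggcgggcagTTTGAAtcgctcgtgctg
Cenpa, chr5:30666890-30666919, plus strand: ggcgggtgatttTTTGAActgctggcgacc
Cenpn, chr8:116921719-116921748, plus strand: gccattggcggcTTCAAAagcacctcggcg
Cenpw, chr10:30200548-30200577, minus strand: tccggcggccaaTTCAAAtcgaccactcgg
Kntc1, chr5:123749706-123749735, plus strand: ttctcccgccaaTTCAAAtcagtggcaggg
Spc25, chr2:69206172-69206201, minus strand: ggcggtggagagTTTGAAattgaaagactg
Sgo1, chr17:53689271-53689300, minus strand: gtaacgcagaatTTCGAAtgtggcggcggt
Bub3, chr7:131560315-131560344, plus strand: gagccgttggcgTTCAAAatcagccaatga

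The promoters of the 3 genes with the largest rises show that the element is not common to all of them. The words found are in capitals, and ATTGG is CCAAT read from the opposite strand. Ndc80 has a CHR that begins at base 30 of its transcript and no CCAAT. Bub1 has a CHR that begins at base 15 of its transcript and a pair of CCAAT boxes upstream of the start, 1 on each strand, at -68 and -42. Birc5 holds none of the words searched in this window.
Ndc80, chr17:71526808-71527107, minus strand: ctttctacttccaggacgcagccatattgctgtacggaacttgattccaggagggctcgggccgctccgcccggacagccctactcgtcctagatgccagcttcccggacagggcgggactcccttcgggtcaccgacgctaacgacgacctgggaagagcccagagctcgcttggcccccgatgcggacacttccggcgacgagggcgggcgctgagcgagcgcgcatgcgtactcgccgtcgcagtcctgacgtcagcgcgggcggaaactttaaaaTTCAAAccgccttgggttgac
Birc5, chr11:117848987-117849286, plus strand: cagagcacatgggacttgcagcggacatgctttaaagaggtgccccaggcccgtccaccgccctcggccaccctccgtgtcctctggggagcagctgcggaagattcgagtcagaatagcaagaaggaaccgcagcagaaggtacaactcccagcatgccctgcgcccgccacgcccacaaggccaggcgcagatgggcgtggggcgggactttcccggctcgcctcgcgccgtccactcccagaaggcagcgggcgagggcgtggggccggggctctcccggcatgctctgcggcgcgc
Bub1, chr2:127831810-127832109, minus strand: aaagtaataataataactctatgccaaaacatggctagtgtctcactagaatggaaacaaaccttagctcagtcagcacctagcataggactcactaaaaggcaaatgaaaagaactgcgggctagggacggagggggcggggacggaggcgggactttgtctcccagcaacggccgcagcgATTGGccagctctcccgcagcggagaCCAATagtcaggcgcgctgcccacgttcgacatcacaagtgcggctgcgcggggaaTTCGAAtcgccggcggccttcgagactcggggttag

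**Figure D2:**
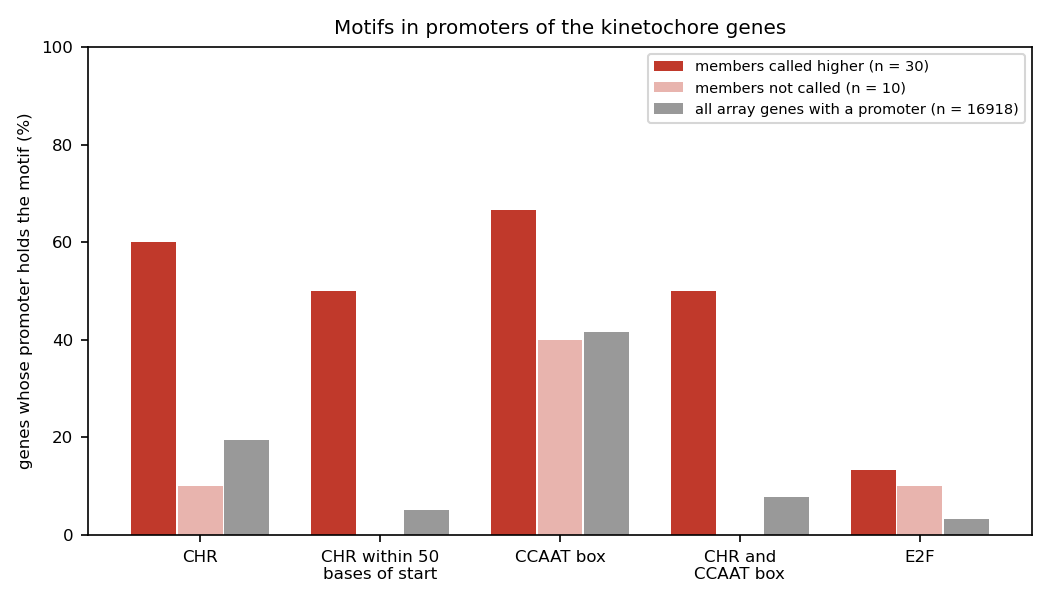
Bars give the share of genes (y axis, %) whose promoter holds each motif, for the 30 kinetochore genes called higher, the 10 not called and the 16918 array genes with a promoter. The share with a CHR near the start, a window chosen after the positions were seen, was 50%, 0 of 10 and 5.11% for these sets. Over the whole promoter, the CHR shares were 60%, 1 of 10 and 19.4%. The E2F shares, also over the whole promoter, were 13.3%, 1 of 10 and 3.25%.

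At the base of the kinetochore, the histone that marks the centromere rose and the protein that binds its DNA repeats did not pass the test. Cenpa, the centromeric histone H3 variant, had 6.44, 6.68, 6.18, 6.25 and 6.85 in exposed mice 1 to 5, against 4.72, 5.09, 5.22, 5.00 and 5.46 in unexposed mice 1 to 5. The exposed mice were all higher, by 2.6-fold on average (log2 change 1.38 with SE 0.16, adjusted p = 0.000367). Cenpb, which binds a sequence in centromeric satellite DNA, had 8.64, 8.73, 8.94, 8.73 and 8.68 in exposed mice 1 to 5, against 8.73, 8.63, 8.71, 8.49 and 8.73 in unexposed mice 1 to 5. Its groups overlapped, with a change of 0.09 (95% interval -0.11 to 0.29, adjusted p = 0.634).

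The inner kinetochore, or constitutive centromere-associated network, links this chromatin to the outer layer. Of its 14 measured genes 11 rose, 0 fell and 3 did not pass, with a median change of 0.81. Cenph, a subunit of the CENP-H/I/K/M group, had 5.96, 6.84, 5.71, 6.86 and 7.16 in exposed mice 1 to 5, against 4.21, 3.90, 4.63, 4.51 and 4.55 in unexposed mice 1 to 5. It was 4.42-fold higher in exposed mice (log2 change 2.15 with SE 0.27, adjusted p = 0.000541), and exposed mice 1 and 3 stood below the other exposed mice. Cenpk, of the same group, had 4.84, 5.71, 5.29, 5.35 and 6.05 in exposed mice 1 to 5, against 3.96, 3.25, 3.62, 3.77 and 3.41 in unexposed mice 1 to 5. It rose 3.6-fold (log2 change 1.85 with SE 0.21, adjusted p = 0.000328) with no overlap. Cenpn, which together with Cenpl contacts the CENP-A nucleosome, had 6.12, 6.07, 5.85, 6.01 and 6.30 in exposed mice 1 to 5, against 4.81, 5.39, 4.71, 4.47 and 4.33 in unexposed mice 1 to 5. The rise was 2.51-fold (log2 change 1.33 with SE 0.18, adjusted p = 0.000782), and the exposed mice were close to each other.

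The 3 inner kinetochore genes without a call were Cenpx, Cenpo and Cenpc1. Cenpx, a histone-fold protein that also works in DNA repair, had 7.01, 7.17, 6.61, 6.80 and 6.99 in exposed mice 1 to 5, against 6.70, 6.84, 7.11, 6.93 and 6.71 in unexposed mice 1 to 5. The groups were intermixed and the change was 0.06 (95% interval -0.21 to 0.33, adjusted p = 0.835); without exposed mouse 2 it was -0.005. Cenpo had 6.33, 6.28, 6.19, 6.37 and 6.27 in exposed mice 1 to 5, against 6.36, 6.14, 5.75, 5.89 and 6.05 in unexposed mice 1 to 5. Unexposed mouse 1 lay among the exposed mice, and the change was 0.25 (95% interval -0.0028 to 0.50, adjusted p = 0.211). Cenpc1, the scaffold that joins CENP-A chromatin to the outer layer, changed by 0.32 (95% interval 0.06 to 0.58, adjusted p = 0.119). Between these and the large rises stood Cenpw (1.27), Cenpp (0.93), Cenpq (0.91), Cenpi (0.87), Cenpl (0.76), Cenps (0.71), Cenpm (0.66) and Cenpt (0.36), all called (adjusted p 0.00207 to 0.04999). Cenpl was the closest to the threshold: omitting any 1 of 8 mice ended the call, and only omission of mouse 1 or 3 of the exposed group did not (adjusted p 0.00812 to 0.108, with the top value when mouse 5 of the exposed group was omitted). Omitting mouse 2, 3 or 4 of the exposed or 1, 2, 3 or 5 of the unexposed group ended the call of Cenpt; its adjusted p ran between 0.0175 and 0.0717, the top value coming when mouse 3 of the unexposed group was omitted. In Cenpl and Cenpw the groups overlapped in spite of the call.

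Both corona genes rose. Cenpe, the kinesin that carries chromosomes toward the spindle equator, had 6.82, 7.60, 6.87, 7.39 and 7.75 in exposed mice 1 to 5, against 5.14, 5.27, 5.59, 5.41 and 5.11 in unexposed mice 1 to 5. It was 3.95-fold higher (log2 change 1.98 with SE 0.19, adjusted p = 0.000106). Cenpf, a large coiled-coil protein of the outer kinetochore, had 7.10, 7.28, 6.62, 6.97 and 7.49 in exposed mice 1 to 5, against 5.74, 5.30, 5.18, 5.34 and 5.40 in unexposed mice 1 to 5. Its rise was 3.24-fold (log2 change 1.70 with SE 0.16, adjusted p = 0.000106), and neither gene had an exposed mouse near the unexposed range. The symbols Cenpj and Cenpv came under the naming rule as well, although Cenpj encodes a protein of centriole assembly. Cenpj had 6.34, 6.04, 5.42, 5.67 and 5.76 in exposed mice 1 to 5, against 5.63, 5.41, 5.61, 5.47 and 5.31 in unexposed mice 1 to 5. Exposed mouse 3 lay among the unexposed mice and the other exposed mice above them, with a change of 0.36 (95% interval 0.01 to 0.70, adjusted p = 0.189). Cenpv had 7.79, 7.43, 7.21, 7.26 and 7.13 in exposed mice 1 to 5, against 7.96, 7.32, 7.36, 7.54 and 7.48 in unexposed mice 1 to 5. It was the only 1 of the 46 with a change below 0, -0.17 (95% interval -0.50 to 0.17, adjusted p = 0.575).

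The outer kinetochore, or KMN network, holds the microtubule. It comprises Knl1, the Mis12 complex and the Ndc80 complex, and 8 of its 9 measured genes rose, with a median change of 1.24. Ndc80, which grips the microtubule lattice, had 6.93, 7.35, 6.39, 7.27 and 7.49 in exposed mice 1 to 5, against 5.06, 4.65, 4.76, 4.55 and 4.46 in unexposed mice 1 to 5. It was 5.24-fold higher in exposed mice (log2 change 2.39 with SE 0.20, adjusted p = 5.45e-05), the largest rise of the 46 genes and rank 48 of all 22180. Nuf2, its dimer partner, had 6.70, 7.47, 6.35, 6.94 and 7.50 in exposed mice 1 to 5, against 5.05, 4.64, 4.75, 4.66 and 5.12 in unexposed mice 1 to 5. It rose 4.43-fold (log2 change 2.15 with SE 0.22, adjusted p = 0.000142), and in both genes exposed mouse 3 was the lowest and exposed mouse 5 the highest of the exposed group. Knl1, the scaffold on which checkpoint proteins dock, had 6.72, 7.41, 6.65, 7.23 and 7.65 in exposed mice 1 to 5, against 4.87, 4.94, 5.11, 5.31 and 5.23 in unexposed mice 1 to 5. Its rise was 4.12-fold (log2 change 2.04 with SE 0.19, adjusted p = 9.54e-05) with no overlap.

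The remaining outer kinetochore genes spread over the whole range of responses. Spc24 (2.00) and Spc25 (1.24), which anchor the Ndc80 dimer, and Pmf1 (1.16), Nsl1 (0.71) and Dsn1 (0.62), subunits of the Mis12 complex, were called (adjusted p 0.000656 to 0.0301). Dsn1 had 4.89, 5.47, 4.99, 5.04 and 5.51 in exposed mice 1 to 5, against 4.82, 4.36, 4.79, 4.25 and 4.59 in unexposed mice 1 to 5. The lowest exposed mouse exceeded the highest unexposed mouse by 0.07 only, and omitting mouse 2 or 5 of the exposed or 2, 4 or 5 of the unexposed group ended the call (adjusted p between 0.0187 and 0.0747, top value with mouse 4 of the unexposed group omitted). Nsl1 overlapped between the groups and was no longer called when mouse 3 of the exposed or 2, 4 or 5 of the unexposed group was omitted (adjusted p between 0.0176 and 0.0669, top value with mouse 4 of the unexposed group omitted). Zwint, which binds Knl1 and helps to bring in the RZZ complex, had 7.39, 7.31, 7.58, 7.25 and 7.41 in exposed mice 1 to 5, against 7.30, 7.44, 7.33, 7.18 and 7.32 in unexposed mice 1 to 5. Its groups overlapped and the change was 0.07 (95% interval -0.13 to 0.27, adjusted p = 0.693).

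The RZZ complex draws dynein and the Mad1-Mad2 pair to unattached kinetochores. Kntc1, known as Rod, had 5.51, 5.84, 5.68, 6.05 and 6.44 in exposed mice 1 to 5, against 4.73, 4.54, 4.68, 4.77 and 4.60 in unexposed mice 1 to 5. It rose 2.36-fold (log2 change 1.24 with SE 0.16, adjusted p = 0.000528). Zwilch had 5.09, 5.10, 5.04, 5.52 and 5.64 in exposed mice 1 to 5, against 3.83, 4.46, 4.09, 3.73 and 4.12 in unexposed mice 1 to 5. It rose 2.35-fold (log2 change 1.23 with SE 0.17, adjusted p = 0.000776), and in both genes the lowest exposed mouse was above the highest unexposed mouse. Zw10, which also serves membrane traffic outside mitosis, had 6.91, 7.08, 6.85, 7.09 and 6.84 in exposed mice 1 to 5, against 6.85, 6.97, 6.86, 6.92 and 6.91 in unexposed mice 1 to 5. Its values lay within a narrow band in both groups, and the change was 0.05 (95% interval -0.14 to 0.24, adjusted p = 0.792).

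Of the 6 checkpoint genes 5 rose, with a median change of 1.64. Bub1, a kinase that prepares the centromere and recruits other checkpoint proteins, had 5.65, 6.26, 6.03, 6.37 and 6.85 in exposed mice 1 to 5, against 3.98, 3.70, 4.08, 4.64 and 3.83 in unexposed mice 1 to 5. It was 4.55-fold higher (log2 change 2.19 with SE 0.23, adjusted p = 0.000155), and unexposed mouse 4 was the highest of its group. Bub1b, which encodes BubR1 of the inhibitor complex, had 6.47, 6.81, 6.14, 6.01 and 6.78 in exposed mice 1 to 5, against 4.29, 4.78, 4.64, 4.29 and 3.78 in unexposed mice 1 to 5. Its rise was 4.25-fold (log2 change 2.09 with SE 0.21, adjusted p = 0.000142). Ttk, the kinase Mps1 that starts checkpoint signalling, had 5.99, 6.68, 5.91, 6.04 and 6.78 in exposed mice 1 to 5, against 4.40, 4.76, 4.11, 5.06 and 3.88 in unexposed mice 1 to 5. The rise was 3.57-fold (log2 change 1.84 with SE 0.25, adjusted p = 0.000776), and here as in Bub1b the lowest exposed mouse lay clear of the unexposed mice. Mad2l1, the protein that captures Cdc20, averaged 7.52 ± 0.40 in exposed and 6.07 ± 0.25 in unexposed mice (SD, n = 5 each), a rise of 2.73-fold (adjusted p = 0.000672).

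The changes of their partners were small. Bub3, the adaptor that carries Bub1 and BubR1, had 8.08, 8.10, 7.96, 8.02 and 8.16 in exposed mice 1 to 5, against 7.87, 7.59, 7.86, 7.46 and 7.66 in unexposed mice 1 to 5. The exposed mice were all higher but by 1.3-fold only (log2 change 0.38 with SE 0.10, adjusted p = 0.0346), and omitting any 1 of 7 mice ended the call, all but mouse 3 of the exposed and mice 1 and 3 of the unexposed group (adjusted p between 0.0353 and 0.0820, top value with mouse 2 of the unexposed group omitted). Mad1l1, which anchors Mad2 at the kinetochore, had 6.28, 6.06, 6.17, 6.08 and 6.08 in exposed mice 1 to 5, against 5.78, 6.01, 6.13, 5.80 and 6.09 in unexposed mice 1 to 5. The groups overlapped, with a change of 0.17 (95% interval -0.05 to 0.39, adjusted p = 0.332).

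**Figure D3:**
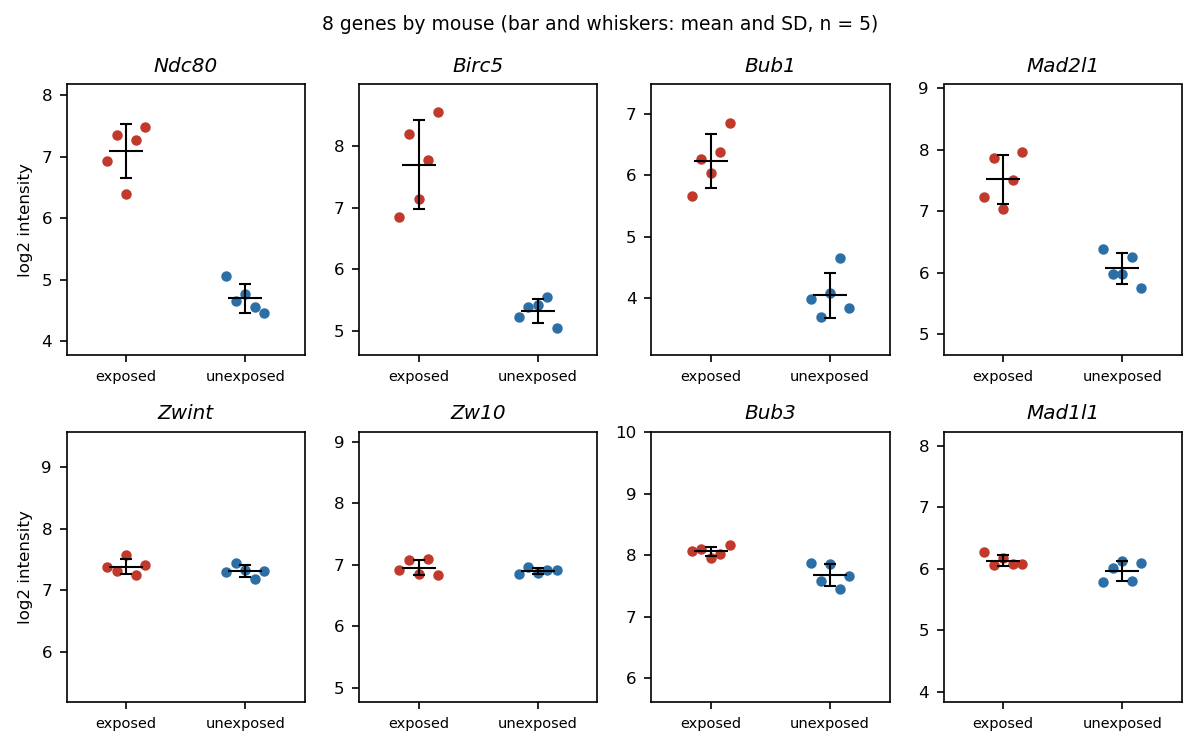
Log2 intensity (y axes, all of equal length) of 8 genes in each exposed (left) and unexposed (right) mouse; points are mice, bars means and whiskers SD (n = 5). Ndc80, Birc5, Bub1 and Mad2l1 (top) separate the groups by 1.45 to 2.39 log2 units, while Zwint, Zw10, Bub3 and Mad1l1 (bottom) differ by 0.05 to 0.38.

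All 4 genes of the chromosomal passenger complex, which corrects faulty attachments and later works at the cleavage furrow, rose. Birc5, or survivin, which places the complex on centromeres, had 6.84, 8.19, 7.13, 7.77 and 8.56 in exposed mice 1 to 5, against 5.22, 5.38, 5.42, 5.55 and 5.04 in unexposed mice 1 to 5. It rose 5.2-fold (log2 change 2.38 with SE 0.29, adjusted p = 0.00041), with an SD of 0.72 over exposed mice, the widest of the 46 genes. Cdca8, or borealin, had 6.53, 6.97, 6.30, 7.03 and 7.52 in exposed mice 1 to 5, against 5.34, 5.02, 5.17, 5.05 and 5.19 in unexposed mice 1 to 5. The rise was 3.29-fold (log2 change 1.72 with SE 0.20, adjusted p = 0.000308). Aurkb, the kinase of the complex, had 6.81, 6.88, 6.69, 7.06 and 7.11 in exposed mice 1 to 5, against 5.58, 4.99, 5.29, 5.16 and 5.72 in unexposed mice 1 to 5. It was 2.95-fold higher (log2 change 1.56 with SE 0.15, adjusted p = 0.000106), and its exposed mice differed among themselves less than those of Birc5. Incenp, the scaffold, had 6.43, 6.52, 6.56, 6.41 and 7.02 in exposed mice 1 to 5, against 5.28, 5.42, 4.97, 5.40 and 5.20 in unexposed mice 1 to 5. Its rise was the smallest of the complex at 2.52-fold (log2 change 1.33 with SE 0.14, adjusted p = 0.000153), and exposed mouse 5 stood above the other exposed mice.

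The Ska complex keeps kinetochores on shortening microtubule ends. Ska3 had 5.88, 6.34, 5.49, 6.03 and 6.75 in exposed mice 1 to 5, against 4.45, 4.61, 4.00, 4.35 and 4.10 in unexposed mice 1 to 5. It rose 3.47-fold (log2 change 1.80 with SE 0.21, adjusted p = 0.000372). Ska1 had 5.31, 6.32, 5.69, 5.94 and 6.62 in exposed mice 1 to 5, against 4.63, 4.47, 4.61, 4.57 and 4.39 in unexposed mice 1 to 5. It rose 2.72-fold (log2 change 1.44 with SE 0.21, adjusted p = 0.00121), and again exposed mouse 5 was the highest. Ska2 had 5.85, 5.97, 5.72, 5.81 and 6.26 in exposed mice 1 to 5, against 5.85, 5.69, 5.34, 5.61 and 5.61 in unexposed mice 1 to 5. Exposed mice 3 and 4 were below unexposed mouse 1, and the change was 0.31 (95% interval 0.03 to 0.58, adjusted p = 0.157). Sgo1, the shugoshin that shields centromeric cohesin until anaphase, had 4.87, 5.10, 5.15, 5.52 and 5.60 in exposed mice 1 to 5, against 4.72, 4.36, 3.89, 3.92 and 3.73 in unexposed mice 1 to 5. The exposed mice were all higher, 2.17-fold on average (log2 change 1.12 with SE 0.20, adjusted p = 0.00476).

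Several complexes held genes that rose beside genes that did not, and the size of this inequality was measured for binding partners within each mouse. The pairs were listed with the changes of their genes known, and many set a called gene against one that was not, so the p-values restate those changes and add no independent support. For 19 pairs the log2 ratio of the pair was compared between groups with an exact permutation test, two-sided, over all 252 relabellings of the 10 mice (smallest possible p 0.00794), with Benjamini-Hochberg adjustment over the 19 pairs. The ratio differed in 13 pairs. The log2 ratio of Knl1 to Zwint was -0.67, 0.10, -0.93, -0.03 and 0.25 in exposed mice 1 to 5, against -2.43, -2.50, -2.22, -1.87 and -2.09 in unexposed mice 1 to 5. It was higher in all 5 exposed mice, by 1.97 (exact permutation p = 0.00794, adjusted p = 0.0126). The log2 ratio of Bub1 to Bub3 averaged -1.83 ± 0.41 in exposed and -3.64 ± 0.46 in unexposed mice (SD, n = 5 each), a difference of 1.81 (exact permutation p = 0.00794, adjusted p = 0.0126). The other ratios that were higher in exposed mice were those of Bub1b to Bub3 (1.71), Ska3 to Ska2 (1.49), Mad2l1 to Mad1l1 (1.28), Cenph to Cenpi (1.27), Kntc1 to Zw10 (1.19), Cenpk to Cenpm (1.19), Zwilch to Zw10 (1.18), Ska1 to Ska2 (1.14), Birc5 to Incenp (1.05) and Spc24 to Spc25 (0.76). Cenpo to Cenpp was lower (-0.68). These 11 had an adjusted p of 0.0126, apart from Birc5 to Incenp (0.0232). The Spc24 to Spc25 difference was 0.46 without unexposed mouse 2 (exact permutation p = 0.0159, adjusted p = 0.0251), whose ratio was -0.57 against 0.71 to 1.03 in the other unexposed mice.

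The ratio did not pass in 6 pairs. Ndc80 to Nuf2 differed by 0.24 (adjusted p = 0.159), Aurkb to Incenp by 0.23 (0.317), Cdca8 to Incenp by 0.39 (0.0976), Nsl1 to Pmf1 by -0.45 (0.0603), Cenpl to Cenpn by -0.57 (0.0754) and Cenpt to Cenpw by -0.91 (0.0539), exact permutation throughout. Of these, Cenpt to Cenpw passed after a repeated quantile normalization (adjusted p = 0.0431) and without exposed mouse 3 (0.0215). With dim genes left out its adjusted p was 0.0496. Its difference and unadjusted p were unchanged there, and only the number of pairs adjusted for was smaller. Nsl1 to Pmf1 (0.0215) and Cdca8 to Incenp (0.0377) passed without exposed mouse 3, and Cenpl to Cenpn (0.0431) without unexposed mouse 2. A ratio within an array shows that the signals of a pair changed unequally, and since probe sets may differ in how steeply they respond to RNA, it does not give the ratio of the transcripts.

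**Figure D4:**
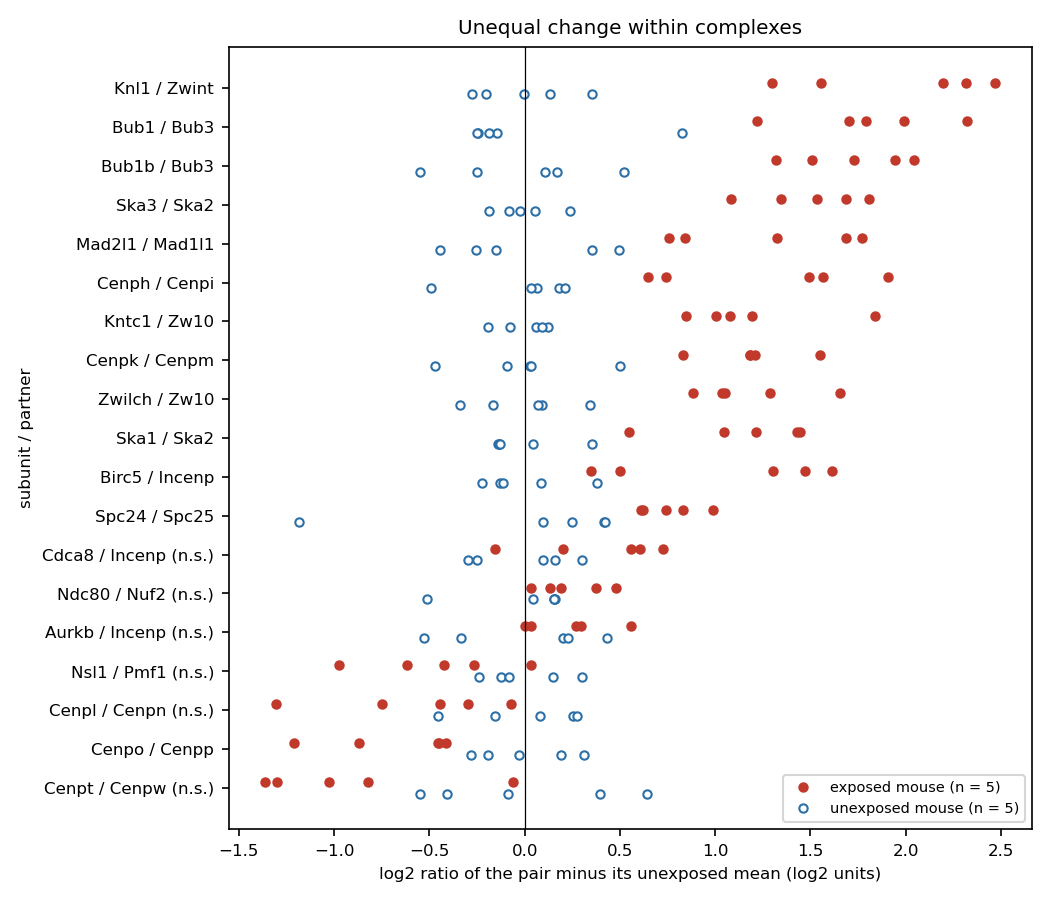
For each pair of binding partners (y axis) the log2 ratio in each mouse is drawn minus the mean of the unexposed mice (x axis, log2 units), with exposed mice filled and above the open unexposed mice. Pairs marked n.s. have an adjusted p of at least 0.05; in 12 of the 13 others the groups do not overlap, the exception being Birc5 / Incenp.

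The exposed mice differed in how far the set was raised. The median over the 46 genes of the difference from the unexposed mean was 0.86, 1.26, 0.94, 1.197 and 1.57 in exposed mice 1 to 5, against 0.07, 0.001, 0.02, -0.02 and -0.07 in unexposed mice 1 to 5. Exposed mouse 5 held the highest exposed value in 29 of the 36 called genes, and exposed mouse 2 in 6. The lowest exposed value was that of exposed mouse 3 in 20 and of exposed mouse 1 in 12 of the 36. Mki67, a general marker of cycling cells outside the set, was 8.00, 8.55, 8.01, 8.32 and 9.01 in exposed mice 1 to 5, against 6.17, 6.06, 5.99, 6.35 and 6.02 in unexposed mice 1 to 5, with the highest value in exposed mouse 5 as well.

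The tissue was labelled subepithelial mesenchyme, and the fibroblast markers were present, among them Col1a1 at 9.74 ± 0.50 in exposed and 8.87 ± 0.12 in unexposed mice (SD, n = 5 each), but airway epithelial transcripts were present too. The mean log2 value of 8 secretory cell markers was between 5.26 and 11.2 in exposed mice, and between 11.73 and 11.97 in unexposed mice, with 2 called lower and 0 higher. Every exposed mouse lay below every unexposed mouse for 7 of these 8, as was so for 5.06% of all genes, and the reverse held for 0. The mean log2 value of 10 ciliated cell markers was between 4.61 and 7.98 in exposed mice, and between 7.74 and 8.33 in unexposed mice, with 4 lower and 0 higher. That of 9 basal cell markers was between 7.91 and 8.94 in exposed mice, and between 7.83 and 8.12 in unexposed mice, with 3 higher and 0 lower. That of 9 macrophage markers was between 8.05 and 8.73 in exposed mice, and between 7.33 and 7.85 in unexposed mice, with 6 higher and 0 lower, and that of 10 fibroblast markers between 9.99 and 10.5 in exposed mice, and between 9.73 and 10.1 in unexposed mice, with 4 higher and 0 lower. Against 5.85% of all genes called higher and 4.97% lower, cartilage markers were lower for 2 of 9 genes. Of 7 endothelial markers 1 was higher, of 8 lymphocyte markers 1 was lower, and none of 7 smooth muscle or 6 pan-epithelial markers was called by limma. The endothelial call, Tek, ended when mouse 2, 3, 4 or 5 of the exposed or 1, 2, 4 or 5 of the unexposed group was omitted. At an unadjusted p under 0.05 in limma, all genes gave 12.4% higher and 11.9% lower. There, 4 endothelial markers were higher and 0 lower, while 5 cartilage and 2 lymphocyte markers were lower and 0 of either list higher. In the same count 1 pan-epithelial gene was higher, and 0 pan-epithelial or smooth muscle genes were lower. The part of these cell types in the rise of the kinetochore genes was not tested. Exposed mouse 3 had the lowest pan-epithelial and secretory means and exposed mouse 5 the lowest ciliated and cartilage means of the 10 mice, and 34 kinetochore genes were called without exposed mouse 3 and 33 without exposed mouse 5. The share of all genes called is given for the fit on all 10 mice only.

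**Figure D5:**
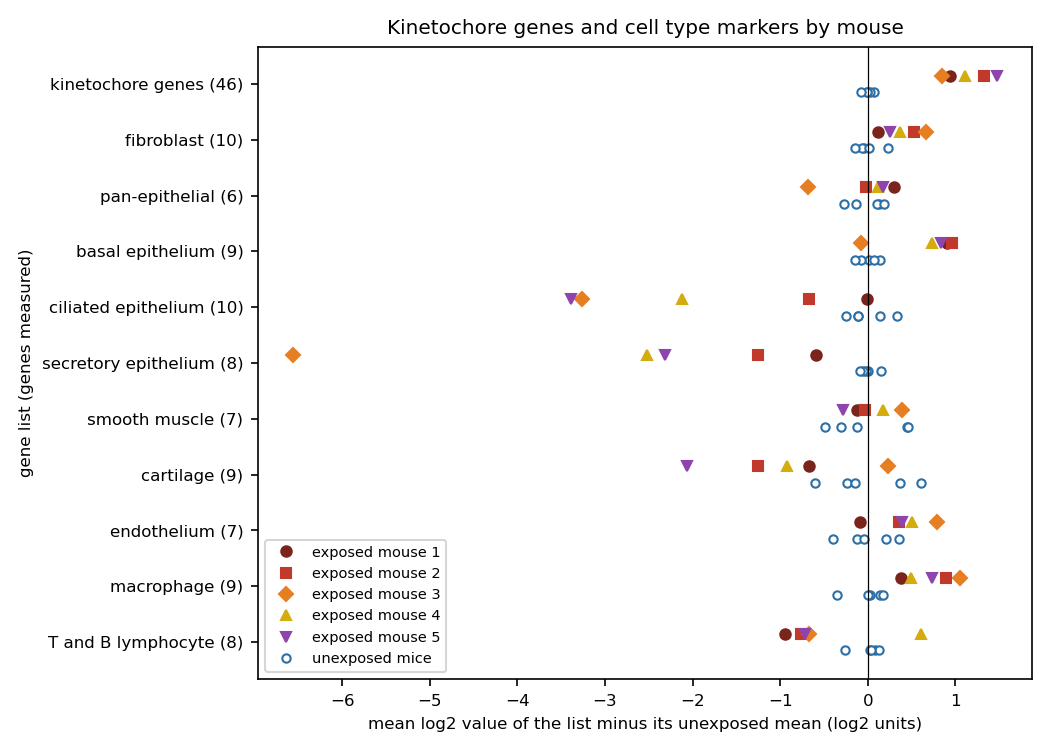
Mean log2 value of each gene list (y axis, with the number of genes measured) in each mouse minus the mean of the unexposed mice (x axis, log2 units); coloured symbols above are exposed mice 1 to 5 and open points below unexposed mice. The kinetochore mean was above all unexposed mice in every exposed mouse (0.85 to 1.47), while the secretory mean of exposed mice ran between -6.56 and -0.59.

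The kinetochore works with neighbours that load it, regulate it or answer to it. Of 85 such measured genes in 5 lists, 36 were higher and 2 lower (43 and 9 at an unadjusted p under 0.05 in limma, where all genes gave 12.4% and 11.9%; at the adjusted p they gave 5.85% and 4.97%), with a median change of 0.23. Among 17 kinetochore-associated genes under other symbols 8 rose and 0 fell, led by the mitotic kinase Plk1 (1.60, adjusted p = 0.00115) and the microtubule-depolymerising kinesin Kif2c (1.58, adjusted p = 8.46e-05). Of 7 genes of CENP-A deposition 4 were called higher and 0 lower (4 and 2 at an unadjusted p under 0.05 in limma). Racgap1, a partner of the cytokinesis kinesin (1.93, adjusted p = 6.33e-05) and Mis18a, a licensing factor (0.87, adjusted p = 0.0121), were in front. Npm1 (0.49, adjusted p = 0.0403), named after its values were seen, was the least secure of these calls. Omitting mouse 2 or 4 of the exposed group or any 1 unexposed mouse ended it (adjusted p between 0.0267 and 0.0931).

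The target of the checkpoint is the anaphase-promoting complex, and in its list of 22 genes 9 rose and 0 fell. The E2 enzyme Ube2c (2.65, adjusted p = 5.56e-05) and cyclin B2, Ccnb2 (2.38, adjusted p = 2.68e-05), led it. Of the Anapc genes only Anapc15 (0.66) and Anapc16 (0.33), named after their values were seen, were called, and both were higher. Omitting any 1 mouse other than mouse 5 of the unexposed group ended the call of Anapc16 (adjusted p between 0.0394 and 0.0872). Cohesin and condensin gave 7 rises and 0 falls of 20 genes, with the condensin subunit Ncaph (1.77, adjusted p = 0.000138) and the cohesin acetyltransferase Esco2 (1.63, adjusted p = 0.00182) the largest, while the ring subunits Smc1a (0.24), Smc3 (-0.14) and Rad21 (0.15), named after their values were seen, did not pass. Of 19 transcription factors of the cell cycle 8 rose and 2 fell. E2f8, a repressor of the E2F family, changed by 2.01 (adjusted p = 0.000427) and Foxm1, an activator of mitotic genes, by 1.47 (adjusted p = 0.000192). The falls were those of Rbl2, the p130 protein of the repressive DREAM complex of resting cells (-0.38, adjusted p = 0.0111), and Lin52, a MuvB subunit (-0.52, adjusted p = 0.0264). Lin52 was no longer called when mouse 2, 3 or 4 of the unexposed group was omitted (adjusted p between 0.0226 and 0.0643).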

How the data were processed

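The authors' deposited values are log2 intensities per probe set; the submitters' processing notes name Partek 6.6 and RMA (robust multi-array average). That the logarithm is base 2 was read off the span of the values and the use of RMA, whose settings the sources used here do not give. Scanner files were not used here, so no detection limit is known. Of 41345 probe sets, 23521 had 1 symbol in the platform annotation, 1814 had several and 16010 were not listed. Array medians were 5.10 to 5.18. Each gene's value was the mean of its single-symbol probe sets (45 of the 46 genes had 1). All 22180 genes entered 1 fit with limma 3.58.1 (R 4.3.3), two-sided, without covariate and with Benjamini-Hochberg adjustment. The fit had been tested on simulated data that gave both groups the spread of the unexposed mice. The wider spread of exposed mice, seen for instance in Birc5, was thus not covered by that test. The number of arrays limits the precision. Members and lists were chosen with earlier results of these data known. Values per mouse are given, in each role, for up to 3 called genes with the largest changes and up to 2 genes with the smallest, and from other lists up to 2 rises and 2 falls are named. Other genes that are named were chosen after their values were seen. Alternatives were a repeated quantile normalization, median centring, a filter on dim genes, the brightest probe set, other variance settings, array weights, a replicate block, the pan-epithelial covariate (mean of Epcam, Cdh1, Krt18, Krt19, Krt8 and Cldn7), stricter thresholds and each mouse left out. Permutation tests used scipy 1.17.1 in Python 3.11.15. The promoter sequence of 1 gene is not reported here.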

Additional observations from a re-analysis of the deposited data

Results flagged for a closer look

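In each group of 5 mice, the highest and lowest values of every kinetochore gene were compared with the rest by Dixon's criterion, which chance passes in about 1 of 20 groups; 3 of 92 passed. Incenp was 7.02 in exposed mouse 5, with 6.41 to 6.56 in the other exposed mice. Pmf1 was 6.22 in unexposed mouse 2, with 5.94 to 6.02 in the other unexposed mice. Spc24 was 4.30 in unexposed mouse 2, with 5.09 to 5.41 in the other unexposed mice.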

How the results depend on the processing

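The share of all genes called is given for the main fit only (5.85% higher and 4.97% lower), so the counts in this section have no such share beside them. The count of kinetochore genes called higher was 28 to 36 under every alternative run and the count called lower stayed at 0. It was 36 after a repeated quantile normalization or median centring, with array weights, with the pan-epithelial covariate (whose means, 8.93 in exposed and 8.95 in unexposed mice, hardly differed; markers of other cell types were not fitted) and with a robust, trended eBayes. It was 35 with the brightest probe set, 29 at an adjusted p under 0.01, and 28 both in a test against a 1.2-fold change and with dim genes left out, which kept 38 of the 46 genes. The dim filter asked for a mean of at least 5 over all 10 mice. Genes dim in unexposed mice, such as Bub1 (mean 4.05, against 6.23 in exposed mice), could pass through their exposed values. The filter thus favoured risen genes, and its count does not show how the result stands without dim genes. With 1 mouse left out the count called higher was 31 to 35. Mice that share a number did not deviate together (correlations -0.05 to 0.12, over 0.1 for numbers 1 and 3 only), so numbers were not taken as pairs; with the number as a replicate block 32 genes were called. The median change was 1.12 to 1.30, the count of genes without overlap 27 to 35 and the count of partner pairs that differed 12 to 16. In the pathway lists, 26 to 37 genes were called higher. The 2 called lower became 3 with a repeated quantile normalization, dim genes left out, the robust, trended eBayes or array weights, 1 with the replicate block, 0 in the test against a 1.2-fold change, 0 at an adjusted p under 0.01, and 1 to 3 with 1 mouse left out; the cause was not tested. Cenpx, which was not called, changed sign without exposed mouse 2 (-0.005, adjusted p = 0.990). Low values have no known detection limit, so folds of genes that were dim in unexposed mice are uncertain.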
